A study of Mus musculus with 80 samples.

Results

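The progeny of old CD150high hematopoietic stem cells (HSCs) were compared with the progeny of old CD150low HSCs 14 days after transplantation, as 2 single-cell RNA-seq (scRNA-seq) libraries of donor-derived stem and progenitor cells. Cells with at least 2000 detected genes and at most 5% of unique molecular identifiers (UMIs, which count captured RNA molecules) from mitochondrially encoded genes were taken. They were 2406 CD150low and 1933 CD150high progeny cells, 4339 of the 8201 kept cells in the 4 scRNA-seq libraries of a series of 80 samples. With 1 library a side the differences have no replicate check, so sizes are described and no test is given.

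The donors were old male C57BL/6 mice carrying CD45.2. Their long-term HSCs were sorted as lineage-negative, Sca-1+, c-Kit+, CD48-, CD34-, CD150+ cells and split by the amount of CD150 protein. CD150low or CD150high HSCs went, with Sca-1-depleted CD45.1 helper marrow, into lethally irradiated young CD45.1 males, so both groups share the radiation, the young host and the helper cells. On day 14, lineage-positive marrow was removed with beads (against B220, CD5, CD4 and CD8 on lymphocytes, CD11b and Gr-1 on myeloid cells, and Ter119 on red cells), and CD45.2 lineage-negative Sca-1+ c-Kit+ cells were sorted for droplet 3' sequencing. The number of donors and recipients behind each library is not given in the sources used here, so neither library can be split by animal. Fresh HSCs of old and young mice (1 scRNA-seq library each), and bulk RNA-seq of old HSCs by CD150 level when fresh or 4 days after transplantation (3 libraries a group), are set beside the progeny below.

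CD150, the product of Slamf1, is a surface receptor of the SLAM family that HSCs carry and many of their descendants lose. As HSCs leave the stem cell state they gain CD48 and CD34, then divide their output between lymphoid-primed progenitors, which gain the receptor Flt3, and myeloid, megakaryocyte and erythroid progenitors. HSCs with much CD150 are known for producing platelets and myeloid cells more than lymphocytes, and they make up more of the HSC pool in old marrow.

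The libraries differed in depth and in their smallest barcodes. The CD150low matrix held 3567 barcodes and the CD150high matrix 9631, of which 30.1% and 78.8% had fewer than 2000 genes. Kept cells had a median of 19440 UMIs in CD150low and 30650 in CD150high progeny. Every cell was therefore thinned at random to 10878 UMIs, which left out 395 CD150low and 39 CD150high cells below that number and gave a median of 3281 and 3348 detected genes. Levels are given as CPM, counts scaled by the total of the thinned UMIs of a whole library, and intervals are exact 95% ones that cover counting error only, not the spread between animals. The libraries shared 3 barcodes among kept cells.

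The kept cells carried the genes of their gate. Kit was at 138 CPM in CD150low and 120 CPM in CD150high progeny, and Ly6a, which encodes Sca-1, was at 222 and 254 CPM. Genes of the lineages removed by beads summed to 6.26 and 4.27 CPM over 5 genes, 2 of them at 0 in either library. T and NK cell genes summed to 6.08 and 3.30 CPM with 6 of 10 at 0 on both sides, and dendritic cell genes to 3.02 and 0.680 CPM over 8. Macrophage genes summed to 26.7 and 45.9 CPM over 14, none at 0, and B cell genes to 27.2 and 26.0 CPM over 9, mostly Cd79b. The log2 ratios of these sums were -0.88 (-1.32 to -0.45) for T and NK cell genes, -2.15 (-3.10 to -1.30) for dendritic cell genes and 0.78 (0.63 to 0.93) for macrophage genes, so these lists differed at low levels. Genes of basophils, red cells and neutrophils are described in their own paragraph.

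Across the transcriptome the progeny libraries were close. Of 21901 genes, 8000 reached a mean of 10 CPM, and the correlation of their log2 CPM was 0.989. In the CD150high library 118 of these genes (1.48%) were at least 1.5-fold higher and 100 (1.25%) at least 1.5-fold lower, against 90 and 128 when cells were not thinned, so that the share of higher genes among those past the fold went from 54.1% to 41.3%. The median log2 ratio over all 8000 genes was 0.06, with 90% of genes between -0.27 and 0.34, the 5th and 95th percentiles. At a fold of 2 the counts were 36 and 23, and with a floor of 50 CPM they were 18 and 25. The floor is a mean over both libraries, so some genes passed it only through the library where they were higher. This holds in either direction. Counts of list members below hold such genes and are a description. Genes far from the middle of that range fell into a few groups, which are described from stem cell genes to mature lineages. Each list count below is to be read beside the shares over all 8000 genes, 1.48% higher and 1.25% lower.

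Stem cell and HSC aging genes were higher in CD150high progeny, led by genes that platelets and HSCs share. Vwf, which encodes the clotting glycoprotein von Willebrand factor and marks platelet-biased HSCs, was at 11.6 CPM (10.2 to 13.1) in CD150low and 59.0 CPM (55.8 to 62.4) in CD150high progeny, a log2 ratio of 2.35 (2.15 to 2.55). That is 5.08-fold, the largest ratio among named genes that were higher. Fresh HSCs had 49.9 CPM of Vwf in old and 29.2 CPM in young mice, so the CD150low progeny lay below all the others. Slamf1, the gene of the protein by which the donors were sorted, was at 17.9 CPM in CD150low and 40.2 CPM in CD150high progeny (log2 ratio 1.17, 1.00 to 1.35), and at 33.6 and 37.7 CPM in fresh old and young HSCs. The transcript of the sorting marker thus differed on day 14 in the direction in which the donor cells had been sorted.

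Of 23 HSC genes at the 10 CPM floor, 9 were at least 1.5-fold higher, 1 was lower, and the median log2 ratio was 0.37 against 0.06 over all genes. Tgm2, which encodes a protein cross-linking transglutaminase, was at 9.10 CPM in CD150low and 29.6 CPM in CD150high progeny (1.70, 1.47 to 1.94). Ctnnal1, an alpha-catenin-like gene used as an HSC label, was at 9.92 and 27.1 CPM. The single lower gene, named after its value was seen, was Hlf, a transcription factor of HSCs, at 193 CPM in CD150low and 126 CPM in CD150high progeny. The summed level of the list was 1740 and 1995 CPM, both below the 5277 CPM of fresh old HSCs. The log2 ratio of that sum was between 0.07 and 0.32 over the settings tried.

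Of 99 matched members of a public list of HSC aging markers, 24 reached the floor, 13 of them were higher and none lower in CD150high progeny, with a median log2 ratio of 0.65. Cavin2, a coat protein of caveolae, was at 20.98 CPM in CD150low and 97.6 CPM in CD150high progeny (log2 ratio 2.22, 2.07 to 2.37). Its level was 272 CPM in fresh old and 49.0 CPM in fresh young HSCs. Nupr1, a small chromatin-associated stress protein, went the same way, at 26.9 and 97.95 CPM in the progeny (1.87, 1.73 to 2.00) and at 311 and 44.8 CPM in fresh old and young HSCs. For both genes the CD150low progeny were below fresh young HSCs, and the CD150high progeny lay between fresh young and fresh old HSCs. Mt1, a metal-binding metallothionein, was at 56.3 and 107 CPM in the progeny, between fresh young HSCs at 22.1 CPM and fresh old HSCs at 210 CPM. Over the 99 markers the summed level was 1031 CPM in CD150low and 1519 CPM in CD150high progeny, against 3953 CPM in fresh old and 1176 CPM in fresh young HSCs. The fresh libraries were made in another experiment and with a lower minimum of 800 detected genes.

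Further transcripts were higher in CD150high progeny, not all of them high in fresh HSCs. Bex4 was at 12.1 CPM in CD150low and 50.2 CPM in CD150high progeny (2.05, 1.86 to 2.25), against 116 CPM in fresh old HSCs. Slfn2, a Schlafen family gene, was at 10.3 and 31.3 CPM (1.60, 1.38 to 1.83), and the basic helix-loop-helix factor gene Tcf15 at 12.5 and 36.6 CPM (1.55, 1.35 to 1.76). Id1, which encodes an inhibitor of such factors, was at 6.45 and 26.3 CPM (2.03, 1.76 to 2.31) and was low in fresh old HSCs at 3.38 CPM. Socs2, a feedback inhibitor of cytokine signalling, was at 9.10 and 31.2 CPM (1.78, 1.54 to 2.01), with 21.4 CPM in fresh old and 75.4 CPM in fresh young HSCs. Mycn, a growth-promoting relative of Myc, was at 29.1 and 67.7 CPM (1.22, 1.08 to 1.35), whereas the other 10 cyclin and Myc genes stayed within 1.5-fold.

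**Figure D1:**
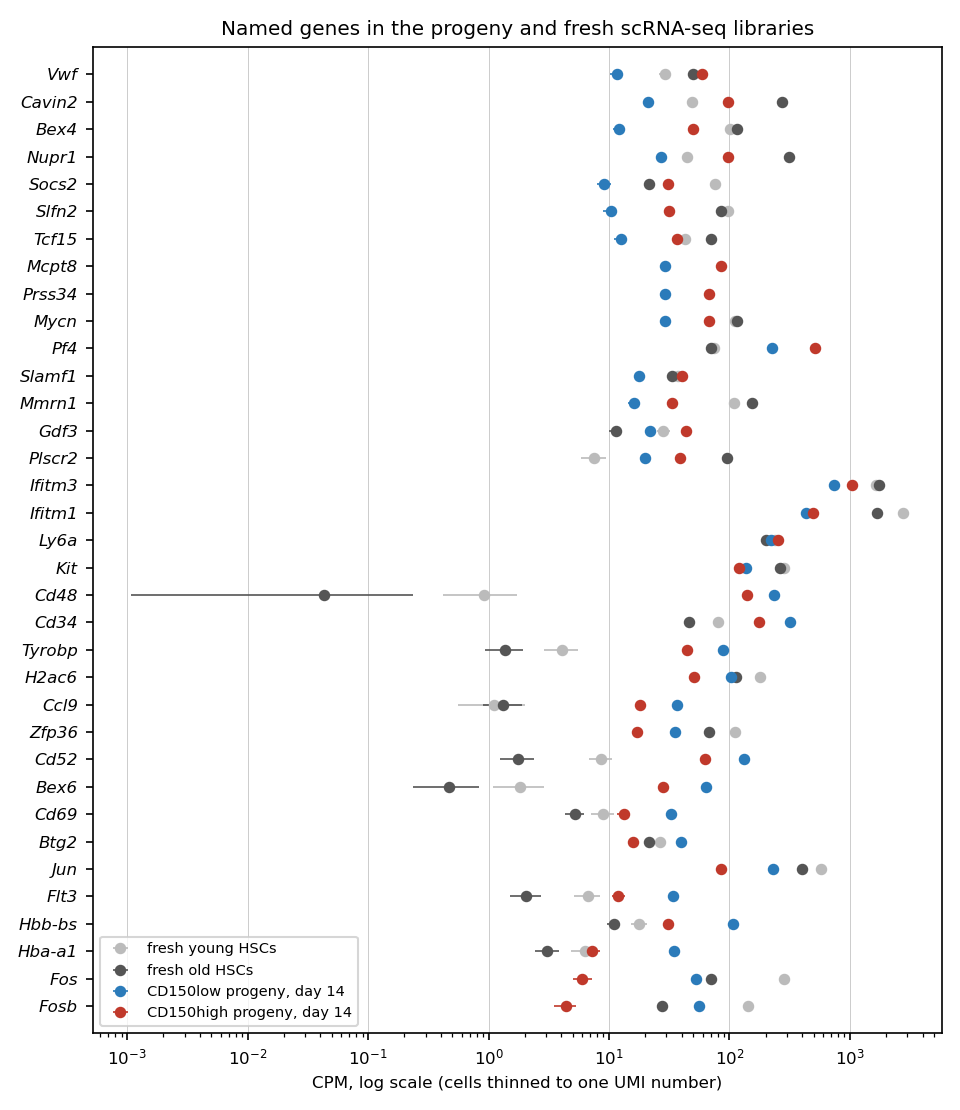
Levels of named genes in 4 scRNA-seq libraries, in CPM on a log axis, after thinning each cell to 10878 UMIs; points are whole-library values, bars exact 95% Poisson intervals, and a gene at 0 (Mcpt8 and Prss34 in both fresh libraries) has no point. Vwf lies at 11.6 CPM in CD150low and 59.0 CPM in CD150high progeny at the top, and Fosb at 55.5 and 4.37 CPM at the bottom.

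Megakaryocyte genes were higher and red cell genes were divided. Of 16 megakaryocyte genes at the floor, 6 were at least 1.5-fold higher and none lower in CD150high progeny (median log2 ratio 0.52), and their summed level, over the 24 listed genes, was 1102 and 1768 CPM. Pf4, the platelet factor 4 chemokine gene and the most abundant of those higher, was at 224 CPM (217 to 230) in CD150low and 510 CPM (500 to 519) in CD150high progeny, and at 69.8 and 74.6 CPM in fresh old and young HSCs. Mmrn1, which encodes the platelet protein multimerin, was at 16.1 and 33.3 CPM in the progeny but at 155 CPM in fresh old HSCs. Vwf, Cavin2 and Mmrn1 also stand in the stem cell or aging lists, so those counts share members. Gata1 and Epor, the transcription factor and the erythropoietin receptor that erythroid progenitors need, were at 16.1 and 9.01 CPM in CD150low and 28.1 and 15.5 CPM in CD150high progeny. Their log2 ratios were 0.81 (0.62 to 1.01) and 0.79 (0.53 to 1.05). With up to 10% mitochondrial UMIs allowed, Gata1 was just under the fold at 0.5846. Of the 14 erythroid genes at the floor, 2 were higher, 3 were lower and 9 stayed within 1.5-fold. The log2 ratio of the erythroid sum changed sign over the settings tried, from -0.02 to 0.07.

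Lymphoid-primed genes were lower in CD150high progeny. Of 10 at the floor, 6 were at least 1.5-fold lower and none higher, with a median log2 ratio of -0.87. Flt3, the cytokine receptor of lymphoid-primed multipotent progenitors, was at 33.9 CPM (31.5 to 36.4) in CD150low and 11.9 CPM (10.5 to 13.5) in CD150high progeny, a log2 ratio of -1.50 (-1.72 to -1.29). Satb1, a chromatin organiser of early lymphoid cells, was at 19.4 and 7.77 CPM, and Dntt, the terminal transferase of immature lymphocytes, at 16.8 and 7.62 CPM. All of these were under 10 CPM in fresh HSCs. The summed lymphoid-primed level moved less, from 904 to 748 CPM, since abundant members stayed within the fold.

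Genes that HSCs gain on leaving the stem cell state were lower too. Cd48 was at 232 CPM in CD150low and 139 CPM in CD150high progeny (-0.74, -0.81 to -0.67), and Cd34 at 319 and 174 CPM (-0.87, -0.93 to -0.81). In fresh old HSCs, sorted as negative for both proteins, Cd48 was at 0.0427 CPM and Cd34 at 45.9 CPM. Of 4 SLAM family genes at the floor, Cd48 and Cd244a, which encodes its binding partner, were lower, Slamf1 was higher, and Cd84 stayed within 1.5-fold at 58.6 and 54.8 CPM. Granulocyte-monocyte genes followed, with 5 of 15 lower, none higher and a median of -0.41. Among them were Nkg7, a granule membrane protein gene, at 350 and 211 CPM, and Gfi1, a transcriptional repressor of granulocyte precursors, at 15.3 and 9.17 CPM. Cd52, a small surface glycoprotein gene of lymphocytes and monocytes, was at 133 and 63.0 CPM (-1.08), and Tyrobp, an adaptor of myeloid and NK receptors, at 88.6 and 44.2 CPM (log2 ratio between -1.12 and -0.89).

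The largest differences between the libraries were in immediate early genes, which cells switch on within minutes of a stimulus. Of 14 at the floor, 8 were at least 1.5-fold lower in CD150high progeny and none higher (median -0.82), and the summed level of 20 was 952 and 510 CPM. Fosb was at 55.5 CPM (52.4 to 58.7) in CD150low and 4.37 CPM (3.51 to 5.37) in CD150high progeny, a log2 ratio of -3.67 (-3.99 to -3.36). Fos was at 52.6 and 6.02 CPM (-3.13, -3.41 to -2.86), and Jun, whose product pairs with both in the AP-1 factor, at 230 and 84.5 CPM (-1.45, -1.53 to -1.37). In fresh young HSCs Fosb, Fos and Jun were higher than in either progeny library, at 142, 283 and 575 CPM. These genes can differ widely between libraries of 1 group. In the bulk libraries of fresh young HSCs, given in FPKM, Fosb was at 0.369, 0.551 and 37.4. Fos was at 4.35, 10.4 and 1137 FPKM there, and Jun at 11.6, 14.4 and 103 FPKM. In fresh old HSCs they were at 27.6, 70.1 and 397 CPM, which for Fosb is below the CD150low progeny. In the barcodes under 1000 UMIs Jun was at 170 CPM in CD150low and 37.2 CPM in CD150high, Fos at 36.6 and 1.39 CPM, and Fosb at 7.84 and 2.54 CPM. Jun, Fos and Fosb were thus lower in CD150high there too. These barcodes held 382686 UMIs in CD150low and 4327221 in CD150high, so the levels of Fos and Fosb rest on few UMIs. No interval was computed, and the size of these ratios is not set against that in kept cells. The part of the small barcodes in the difference was not tested.

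Promoters of the immediate early group are shown to print the sequences where factors of the stimulus response can bind, for members that were lower. Of 17 listed genes with a promoter of 250 bases before and 50 after the start in RefSeq (GRCm38.p6), 2 held the cyclic AMP response element TGACGTCA, against 1.79% of 32851 promoters, and 2 held a CArG box, the serum response factor motif, against 1.63%. Both strands were searched, and the element TGACGTCA reads the same on both. Capitals mark the motif in the stretches below, written 5′ to 3′ on the gene's strand. A gene was counted if any of its promoters held the motif, whereas the percentages are over promoters. A match describes letters, not binding.
Dusp1, chr17:26508568-26508655, minus strand: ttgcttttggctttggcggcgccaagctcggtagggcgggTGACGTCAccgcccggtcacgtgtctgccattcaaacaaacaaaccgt
Btg2, chr1:134079274-134079361, minus strand: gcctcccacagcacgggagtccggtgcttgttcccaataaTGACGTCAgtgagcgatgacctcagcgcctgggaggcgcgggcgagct
Zfp36, chr7:28379237-28379326, minus strand: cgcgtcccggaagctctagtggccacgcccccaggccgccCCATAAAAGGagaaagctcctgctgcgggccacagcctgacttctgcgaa

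Those genes were lower by between 2.04-fold and 2.56-fold in CD150high progeny. Dusp1, a phosphatase that ends MAP kinase signals, was at 17.8 and 6.94 CPM (-1.36, -1.64 to -1.08). Btg2, an antiproliferative gene, was at 39.5 and 15.9 CPM (-1.31, -1.50 to -1.12), and Zfp36, whose product speeds the decay of cytokine messages, at 35.2 and 17.2 CPM (-1.03, -1.22 to -0.85).

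Interferon-stimulated genes were somewhat higher in CD150high progeny. Of 43 at the floor, 6 were at least 1.5-fold higher and none lower, against 1.48% and 1.25% of all 8000 genes. The median log2 ratio was 0.21, against 0.06 over all genes. Above 0 were 38 members, where most of all genes lay too, since their median was above 0. Iigp1, an immunity-related GTPase, was at 29.4 CPM (27.1 to 31.7) in CD150low and 55.9 CPM (52.7 to 59.2) in CD150high progeny (0.93, 0.79 to 1.07). Phf11d was at 12.3 and 25.9 CPM (1.08, 0.86 to 1.29) and Oas1a, a sensor of double-stranded RNA, at 9.96 and 18.01 CPM (0.85, 0.61 to 1.10). The abundant membrane protein gene Ifitm3 was at 733 and 1036 CPM (0.50, 0.47 to 0.53), below the fold, and Ifitm1 at 429 and 497 CPM. Both were higher in fresh old HSCs, at 1731 and 1680 CPM. Unthinned, Ifi44 had a log2 ratio of 0.34 in place of 0.78, under the fold, and with cells thinned to the 5th percentile of depth Ifi44 and Oas1a were under it at 0.51 and 0.54.

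The interferon-stimulated response element, searched as GAAANNGAAA on both strands, stood in the promoters of 22 of the 37 listed genes with an entry, against 3.44% of all promoters. Here too a gene was counted if any of its promoters held the element, whereas the percentage is over promoters. Oas1a and 2 further members past the fold are shown, Ifit1 (17.3 and 29.5 CPM) and Rsad2 (16.4 and 25.0 CPM), which were chosen after their values were seen. Capitals mark a single match in each stretch, which in Ifit1 and Rsad2 is written as the reverse complement. The Ifit1 stretch holds a further match upstream, in lower case. In Oas1a a further match overlaps the marked one and runs on into the lower case letters. Ifit1 and Rsad2 encode antiviral proteins that respond strongly to interferon.
Oas1a, chr5:120907526-120907585, minus strand: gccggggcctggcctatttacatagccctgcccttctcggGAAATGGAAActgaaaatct
Ifit1, chr19:34640764-34640853, plus strand: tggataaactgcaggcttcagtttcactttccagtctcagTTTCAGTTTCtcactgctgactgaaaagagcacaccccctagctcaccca
Rsad2, chr12:26456523-26456612, minus strand: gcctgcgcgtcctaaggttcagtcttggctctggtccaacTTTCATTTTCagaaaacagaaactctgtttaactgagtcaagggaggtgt

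Housekeeping and cell cycle lists stayed close, while ER chaperone and unfolded protein response genes were somewhat higher in CD150high progeny. All 43 S phase genes and all 53 G2/M genes at the floor lay within 1.5-fold, with medians of 0.08 and 0.10, and so did 18 glycolysis, 13 cholesterol synthesis, 15 MHC class I, 9 cell cycle brake and 84 ribosomal protein genes. The S phase, G2/M and cholesterol sums changed sign under some of the settings tried. Ribosomal protein genes were slightly lower in CD150high progeny, with 16 of 84 above 0 (median -0.06). The log2 ratio of their sum was between -0.13 and -0.05 over the settings tried. ER chaperone and unfolded protein response genes were all above 0 (20 of 20), where most of all 8000 genes lay too. Their median was 0.27, above the 0.06 of all genes and the 0.21 of interferon-stimulated genes. Their summed level was 2983 and 3571 CPM, with a log2 ratio between 0.20 and 0.29 over the settings tried. Of that list 1 was at least 1.5-fold higher, against 1.48% of all 8000 genes. It was Asns, which encodes asparagine synthetase and is no chaperone, at 11.1 and 22.1 CPM (1.00, 0.77 to 1.23). Hsp90b1, the ER form of the HSP90 chaperone, was at 335 and 490 CPM (0.55, 0.50 to 0.59). Transcription factor genes did not all stay close. Of 39 at the floor, 4 were higher and 5 lower, against 1.48% and 1.25% of all 8000 genes.

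**Figure D2:**
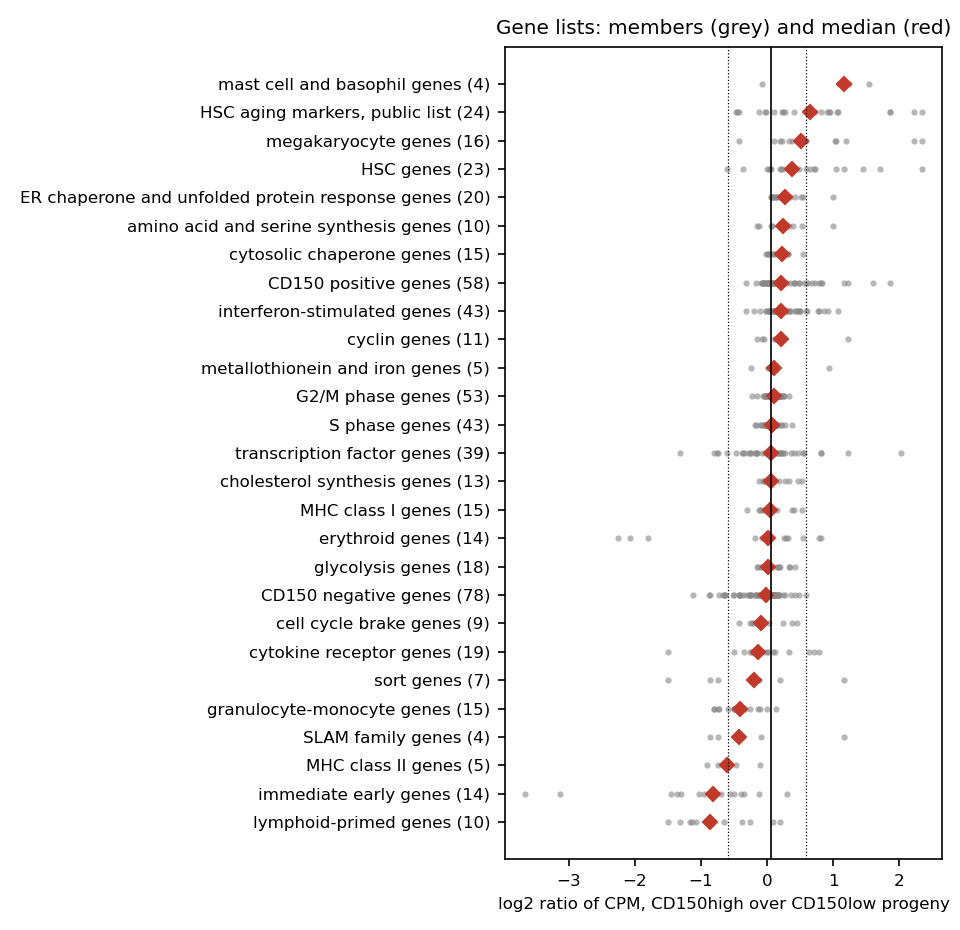
Log2 ratio of CPM, CD150high over CD150low progeny, for members of each gene list at a mean of at least 10 CPM (grey points, number in brackets) with the list median (red diamonds). The solid line is the median of all 8000 genes, 0.06, and dotted lines mark 1.5-fold; the aging marker median lies at 0.65 and the lymphoid-primed median at -0.87.

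Some of the differences sat in few cells of types that the gate should hold little of. Basophil protease genes were higher in CD150high progeny, Mcpt8 at 29.4 and 85.1 CPM (1.54) and Prss34 at 28.9 and 68.1 CPM (1.24). For Mcpt8, 86.1% of the UMIs in CD150low and 96.2% in CD150high progeny were in the 1% of cells with most of them, and Prss34 was seen in 10 and 19 cells. Without thinning Prss34 had a log2 ratio of 0.36. Hba-a1 and Hbb-bs, the adult globin genes of red cells, were lower in CD150high progeny at 34.7 and 7.23 CPM and at 107 and 30.7 CPM. In barcodes under 1000 UMIs the same globins were at 546 and 53.4 CPM and at 1228 and 118 CPM, so the small barcodes of the CD150low library held more of them as well. S100a8, a neutrophil gene, was at 25.3 and 7.57 CPM, with 79.8% and 79.5% of its UMIs in the top 1% of cells. A separate case was Cd74 and H2-Aa, which load and form MHC class II, at 28.8 and 15.4 CPM and at 19.1 and 11.4 CPM. MHC class II genes summed to 302.6 and 206.1 CPM in the progeny and to 775 CPM in fresh old HSCs, so sorted HSCs carry them too. The ratios of Cd74 and H2-Aa turned from -0.90 and -0.75 to 1.59 and 1.19 when cells were thinned to 16153 UMIs, which left out shallower cells. The part of cells outside the gate and of free RNA in the other differences was not tested.

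Cells were then split into 3 strata by UMIs of Procr, Cd48 and Flt3, without clustering. The first held cells with a Procr UMI (EPCR, a surface marker of HSCs) and no Cd48 UMI, the second the remaining cells with a Flt3 UMI, and the third all others. After thinning, 5.97% of CD150low progeny (120 of 2011, exact interval 4.97 to 7.09%) and 12.8% of CD150high progeny (243 of 1894, 11.4 to 14.4%) were in the first, against 82.2% of fresh old HSCs. The Flt3 stratum made up 24.5% (492 cells, 22.6 to 26.4%) and 8.39% (159 cells, 7.19 to 9.74%), against 0.418% of fresh old HSCs, which should lack the receptor. Unthinned, the shares were 8.77 and 15.6% for the first and 34.5 and 17.5% for the second. The Procr stratum was thus the larger and the Flt3 stratum the smaller in the CD150high library, thinned or not. The Flt3 share restates the Flt3 level given above, since it rests on the same UMIs. The Procr share depends on Cd48 as well, which was lower in CD150high progeny. Neither share is separate evidence. Counting Procr cells too, 517 CD150low and 171 CD150high cells (25.7 and 9.03%) had a Flt3 UMI. The strata are named by their rule and are not stages: Procr cells of the CD150low progeny had Cd34 at 253.6 CPM, with a UMI in 81.7% of them, and 20.8% had a Flt3 UMI, while fresh old HSCs had Cd34 at 45.9 CPM. Barcodes under 1000 UMIs had Flt3 at 26.1 CPM in CD150low and 6.01 CPM in CD150high, and Cd48 at 266.5 and 100.8 CPM, and the part of free RNA in these shares was not tested.

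Within strata most differences kept their direction. Of the 118 higher genes, 113 were above 0 among Procr cells, 90 among Flt3 cells and 118 among the others, and 80, 36 and 94 were at least 1.5-fold higher there, against 5.60, 2.26 and 1.30% of all 8000 genes. The cells are the same that gave the whole-library ratios, so these counts are a description. Vwf had log2 ratios of 3.30 among Procr cells, 1.14 among Flt3 cells and 2.02 among others, and Nupr1 of 1.59, 1.34 and 1.61. Fosb was lower in all of them, at -3.62, -2.22 and -4.00, and so was Jun, at -0.89, -1.39 and -1.60. Pf4 differed by stratum, at 0.88 and 1.05 among Procr and other cells and at -0.42 (-0.91 to 0.05) among Flt3 cells. Cd34 was lower among Procr cells and others (-1.45 and -0.89) and slightly higher among Flt3 cells (0.18). Of the 100 lower genes, 90, 75 and 98 were below 0 and 73, 22 and 85 at least 1.5-fold lower, against 3.59, 1.89 and 1.35% of all 8000 genes.

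When both libraries were given the same shares of the strata, a setting chosen after seeing the data, 85 genes stayed at least 1.5-fold higher, all of them among the 118, and 62 lower, 59 of them among the 100. Vwf then had a log2 ratio of 2.12 and Slamf1 of 0.96. Dntt went from -1.14 to -0.16, under the fold. The third stratum, 69.6% of CD150low and 78.8% of CD150high cells, was not split further. Cells within a stratum can also differ in type between the libraries. Equal shares therefore do not match the cell makeup of the libraries.

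**Figure D3:**
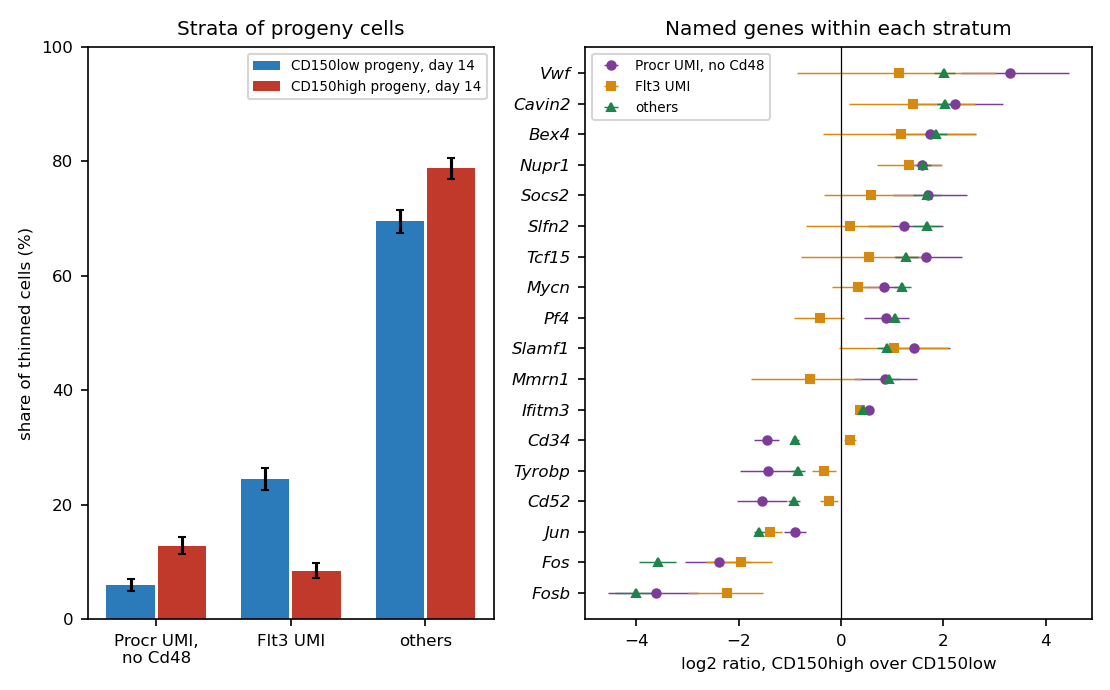
Left, share of thinned cells in each stratum with exact 95% binomial intervals: 5.97% and 12.8% with Procr and without Cd48, and 24.5% and 8.39% in the Flt3 stratum, in CD150low and CD150high progeny. Right, log2 ratio of CPM for named genes within each stratum with exact 95% intervals; Vwf and Nupr1 lie above 0 and Jun, Fos and Fosb below 0 in all 3 strata.

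Bulk RNA-seq shows the CD150 contrast in the donor population and early after transfer. G1 and G4 are the gates of lowest and highest CD150 in fresh old HSCs, from the same 3 mice, and CD150low and CD150high HSCs were also recovered on day 4 (3 libraries a group). Values are FPKM, tested with limma on log2(FPKM + 1), a scale that understates the change of low genes. At an adjusted p under 0.05 and 1.5-fold, 2 of 11466 genes (0.0174%) were higher and 1 (0.00872%) lower in G4 than in G1, and on day 4 none of 11077 (0%) passed in either direction. At an unadjusted p under 0.05 the limma fits gave 738 and 826 genes. With the mouse as a replicate block 1 gene was called between G4 and G1, and the count was 82 without G1 mouse 3 and 0 without G4 mouse 1 or G4 mouse 3. On day 4 it was 9 without CD150low replicate 3. In bulk samples fewer cells of a type and less RNA per cell cannot be told apart.

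Genes that differed in the progeny leaned the same way in the bulk libraries, though of the genes named here Wfdc17 alone passed the test in the fits of the 6 libraries compared. With all 24 bulk libraries in 1 fit, Vwf, Slamf1, Ehd3, Mycn, Nkg7 and Clnk passed between G4 and G1, and Vwf, Cavin2, Cd34, Cd74 and Cd244a on day 4. Among them Cd74 went against its progeny ratio, being higher in CD150high HSCs on day 4. Of the 118 genes higher in CD150high progeny, 115 were tested, and 70.4% were above 0 in G4 against G1 and 73.9% on day 4, beside 47.8% and 51.2% of all progeny genes tested there. Of the 100 lower, 55 of 86 were below 0 in the fresh gates and 61 of 89 on day 4. None of the higher genes was called. The 1 lower gene called was Wfdc17, a secreted whey acidic protein family gene, named because the test called it, and it stands on the study's list of CD150 negative genes. In all, 11 of the higher and 8 of the lower genes stand on lists that the study chose on the G1 to G4 libraries, where their direction was fixed by that choice.

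Vwf was at 28.6, 33.8 and 39.1 FPKM in G1 and at 86.2, 94.0 and 65.9 FPKM in G4, and on day 4 at 21.3, 19.04 and 15.6 FPKM in CD150low and 45.0, 41.2 and 63.5 FPKM in CD150high HSCs. The groups did not overlap at either time, and the limma log2 fold changes were 1.25 ± 0.21 (SE, adjusted p = 0.226) and 1.36 ± 0.21 (adjusted p = 0.221). The share of all genes without overlap was not counted, and with 3 libraries a group some unchanged genes are apart too. Non-overlap is therefore a description, here and below. Slamf1 was at 29.4, 29.2 and 15.2 FPKM in G1 and 102.3, 79.3 and 89.0 FPKM in G4, and on day 4 at 14.2, 14.9 and 16.8 against 28.2, 26.9 and 33.2 FPKM. Ehd3, which encodes a membrane-recycling ATPase, was at 5.49 and 19.9 CPM in the progeny and did not overlap on day 4, at 2.55 ± 0.540 and 6.03 ± 0.618 FPKM (SD, n = 3). Cavin2 was apart at both times, at 78.1 ± 10.9 and 105 ± 12.5 FPKM when fresh and at 10.5 ± 1.42 and 28.2 ± 8.85 FPKM. Slamf1 and Ehd3 are among those list members, so the fresh values of Slamf1 are a description.

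For Cd48 and Cd34 the groups overlapped when fresh and were apart on day 4. Both fresh gates had been sorted as negative for the CD48 and CD34 proteins. Fresh Cd48 could therefore hardly differ between them, and its overlap there is no result. Cd48 was at 0.043 FPKM or less in every G1 and G4 library and appeared on day 4, at 42.2, 94.3 and 53.4 FPKM in CD150low and 13.4, 16.2 and 25.0 FPKM in CD150high HSCs. Cd34 overlapped between G1 (63.6, 69.3 and 28.6 FPKM) and G4 (37.9, 24.8 and 26.4 FPKM), although it was lower in G4 within each of the 3 mice (-0.77, limma adjusted p = 0.764), and on day 4 was at 72.5, 52.2 and 81.1 against 27.9, 20.9 and 8.12 FPKM. Their day 4 log2 fold changes were -1.70 ± 0.30 and -1.94 ± 0.36, both with a limma adjusted p of 0.282. Nkg7, which stands on the study's list of CD150 negative genes, was at 150 ± 28.4 FPKM in CD150low and 57.6 ± 13.2 FPKM in CD150high HSCs on day 4 (limma adjusted p = 0.186), without overlap.

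Some genes were not on the same side at all times. Fos overlapped between groups when fresh (41.3 ± 11.6 and 51.5 ± 26.8 FPKM) and on day 4 (6.24 ± 4.76 and 3.94 ± 3.35 FPKM), and Jun was apart when fresh in the opposite direction to the progeny, at 160, 163 and 63.2 FPKM in G1 and 177, 184 and 175 FPKM in G4. Pf4 was lower in G4 (87.6, 85.1 and 89.0 FPKM) than in G1 (112, 249 and 178 FPKM) and overlapped on day 4. Socs2, higher in CD150high progeny, was lower on day 4, at 65.5, 61.5 and 53.9 FPKM in CD150low and 28.8, 34.5 and 43.4 FPKM in CD150high HSCs. Cd74, lower in CD150high progeny at the main depth, was higher on day 4. It was at 43.5, 37.4 and 51.7 FPKM in CD150low and 151, 72.7 and 97.2 FPKM in CD150high HSCs. All 6 MHC class II genes tested on day 4 were above 0 (median 0.70). Macrophage genes also reached the FPKM floor on day 4, 14 of 14 against 4 in the fresh gates. Of these, 11 were above 0 on day 4 (median 0.27). The part of other cells in the day 4 libraries was not tested. The test of the difference between the day 4 and fresh contrasts called 1 of 11894 genes (0.00841%) and none of these, and 12 genes without day 4 CD150low replicate 3.

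**Figure D4:**
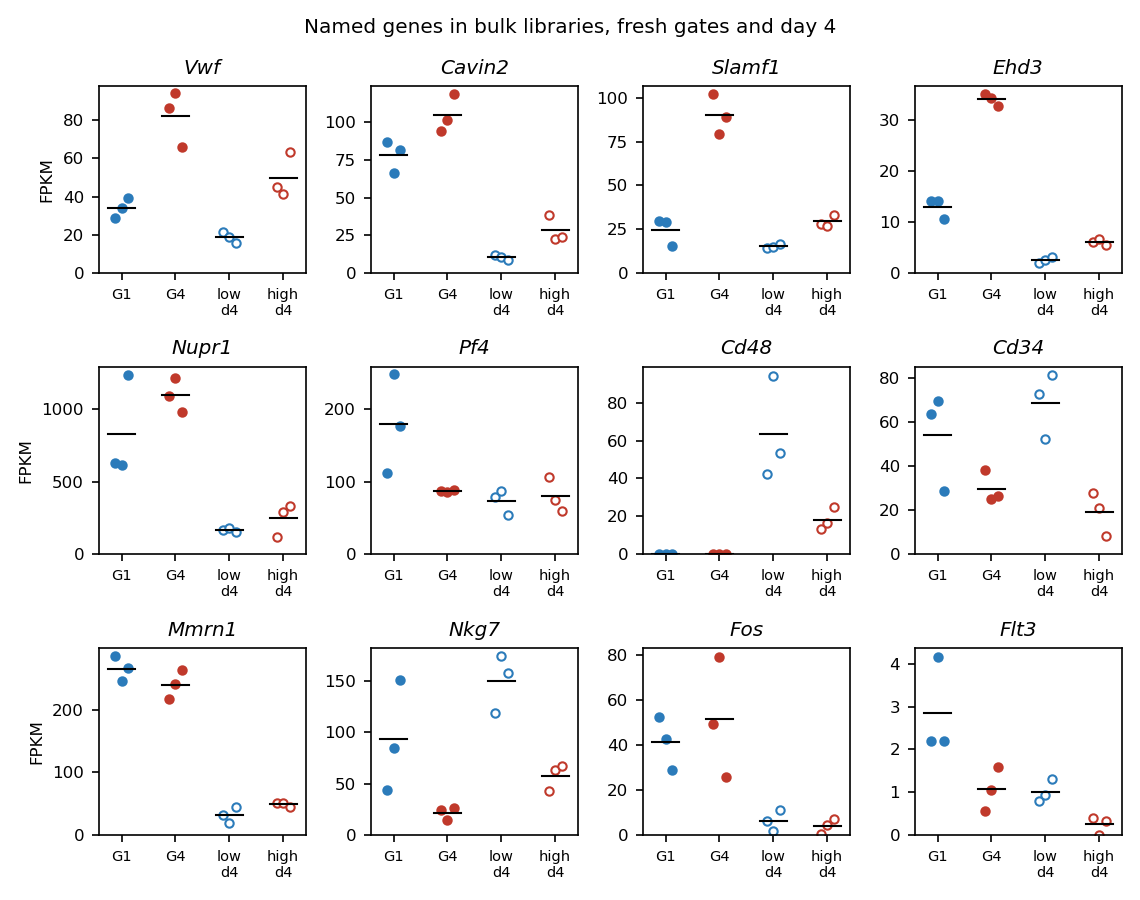
FPKM of 12 named genes in every bulk library of fresh old HSCs gated by CD150 (G1 lowest, G4 highest, filled) and of old CD150low and CD150high HSCs on day 4 (open); bars are means of 3. Vwf, Slamf1, Ehd3 and Cavin2 do not overlap at either time, which for Slamf1 and Ehd3 when fresh was fixed by the study's choice of lists. Cd48 is near 0 in fresh HSCs, which were sorted as negative for its protein, and lower in CD150high HSCs on day 4. Non-overlap is a description, since its share over all genes was not counted.

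Lists that the study had chosen on the fresh CD150 gates were also followed into the progeny. Of 58 CD150 positive genes at the floor, 11 were at least 1.5-fold higher and none lower in CD150high progeny (median 0.21), and of 78 CD150 negative genes 8 were lower and none higher (median -0.02 against 0.06 over all genes). Ces2g, a carboxylesterase gene, had the next largest ratio of the positive list after Ehd3, at 6.58 and 20.1 CPM (1.61, 1.33 to 1.89). Clnk, an immune cell adaptor gene, had the lowest of the negative list, at 17.1 and 7.91 CPM (-1.12, -1.39 to -0.85). Ces2g reached the floor only through the CD150high library, and Clnk only through the CD150low library. On day 4, 82 of 105 positive genes tested were above 0 (median 0.32) and 37 of 91 negative genes (median -0.06), and none was called by limma. Of all progeny genes tested on day 4, 51.2% were above 0. Since the study chose these lists on the G1 to G4 libraries, their direction in those libraries is not independent evidence, and no count of them there is given.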

How the data were processed

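The sources were the authors' gene-by-cell UMI count matrices of 4 droplet libraries and their FPKM tables of 24 bulk libraries. Per the labels, the submitters' processing notes name Cell Ranger and Seurat 4 for single cells and Trim Galore, HISAT2 2.0.0, SAMtools 1.14, HTSeq 0.12.4, Cufflinks and DESeq2 1.22.2 for bulk, with the build mm10. Which tool gave the deposited FPKM values is not given in the sources used here, and counts behind them were not used, so the read depth of the bulk libraries is unknown.

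The study's filter (at least 2000 genes, or 800 for fresh HSCs, and at most 5% mitochondrial UMIs) left 2406 and 1933 progeny cells, slightly more CD150high cells than the study gives. Cells were thinned without replacement to the 10th percentile of kept progeny cells, 10878 UMIs, summed per library and expressed as CPM. A gene was counted as higher or lower at 1.5-fold among genes with a mean of at least 10 CPM. Intervals were exact (Poisson, conditional binomial for ratios, Clopper-Pearson for shares). Scrublet in scanpy 1.11.5 called 8 of 2406 and 4 of 1933 cells as doublets, which were kept except in the alternative without them. Python 3.11.15, numpy 2.4.6, scipy 1.17.1 and pandas 2.3.3 were used.

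Bulk values were tested as log2(FPKM + 1) with limma 3.58.1 (R 4.3.3, trend, Benjamini-Hochberg adjustment). Genes whose mean was under 1 FPKM in every compared group were left out. The day 4 labels do not say that the libraries came from separate animals, so those p-values measure the spread between these libraries, which may be technical. G1 and G4 came from the same 3 mice, per the labels, and the correlations of the deviations of same-numbered libraries were 2.06e-05, 0.0981 and 0.0893. Scripts were tested on simulated data.

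Named genes were those the study names for this experiment, the 15 largest ratios each way at a mean of at least 20 CPM, and up to 4 members with the largest ratio of each list. The comparison, the lists and the named genes were chosen with earlier results of these data known. Alternatives changed the thinning, seed, floor, filters, doublets, CPM total, centring, fold, pseudocount, block and libraries included. Promoters are from RefSeq, GRCm38.p6. Other data types of the series were not analysed here. Some named genes are not reported here.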

Additional observations from a re-analysis of the deposited data

Results flagged for a closer look

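Wfdc17 differed between the day 4 and the fresh CD150 contrast by a test of the difference itself. It was at 123, 117 and 178 FPKM in G1 and 10.4, 15.0 and 8.33 FPKM in G4, and on day 4 at 33.5, 22.8 and 13.3 FPKM in CD150low and 28.8, 23.7 and 34.0 FPKM in CD150high HSCs. The limma difference of the contrasts was 3.91 ± 0.431 on the log2 scale (SE, n = 3 a group, adjusted p = 0.00327). With all 24 bulk libraries in 1 fit the test called 2 genes, 0 of them higher by 1.5-fold, so Wfdc17 was not called there. Wfdc17 stands on the study's list of CD150 negative genes, chosen on the G1 to G4 libraries, so its fresh difference was fixed by that choice. In the day 14 progeny Wfdc17 was at 31.2 CPM in CD150low and 20.1 CPM in CD150high cells. Macrophage genes at the FPKM floor were 14 of 14 on day 4 and 4 in the fresh gates. The part of other cells in the day 4 level of Wfdc17 was not tested.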

How the results depend on the processing

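Of 65 named genes past 1.5-fold in the progeny, 53 stayed past it in all 10 settings that give a value for each gene and 12 did not in some, with Cd74 (1.59) and H2-Aa (1.19) turned to higher by thinning to the 25th percentile of depth. Counts of genes past the fold, higher and lower, went from 118 and 100 to 351 and 238 with a floor of 2 CPM, to 18 and 25 with a floor of 50 CPM, and to 36 and 23 at a fold of 2. Leaving ribosomal protein and mitochondrial genes out of the CPM total gave 156 lower genes, and equal strata shares gave 62. Centring on the median gave 96 and 121. Without thinning, 8.77% and 15.57% of CD150low and CD150high cells were in the Procr stratum, 34.54% and 17.54% in the Flt3 stratum and 56.69% and 66.89% in neither. At the 5th percentile of depth the CD150low shares were 7.63%, 20.38% and 71.99%. At the 25th they were 3.62%, 30.53% and 65.86%, and CD150high had 11.3% with Flt3 and 76.08% in neither. Depth limits these shares, since a cell counts only if a UMI was drawn and a Cd48 UMI takes it out of the Procr stratum. The depth also sets which cells are left. At the 5th, 10th and 25th percentiles they were 2203, 2011 and 1520 CD150low cells. In CD150high they were 1919, 1894 and 1735 cells. The CD150low Procr share fell along these depths, while the CD150high share was 12.19%, 12.83% and 12.62%. The part of the left-out cells in this was not tested.

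In bulk, leaving out 1 library gave 0 to 82 called genes between G4 and G1 (82 without G1 mouse 3, 0 without G4 mouse 1 and 0 without G4 mouse 3), 0 to 9 on day 4 (9 without CD150low replicate 3) and 1 to 12 for the difference of the contrasts (12 without the same library). All 24 libraries in 1 fit gave 42, 32 and 2 genes, the last without Wfdc17. Testing every gene above 0 in a library gave 0 between G4 and G1 and 7 for the difference. With a replicate block 1 gene was called between G4 and G1 and 3 on day 4, where same-numbered libraries did not deviate together (-0.00327, -0.0587 and -0.079). Without G1 mouse 3, Vwf, Slamf1, Ehd3, Mycn and Nkg7 were among named genes that passed, and the cause was not tested.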
